A study of Homo sapiens with 6 samples.

Results

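The genes described here encode hnRNP and SR proteins and the tissue-regulated splicing factors that work beside them. Members were chosen by name from the gene table: every HNRNP, SRSF, RBFOX, MBNL, CELF and PTBP gene, with TRA2A, TRA2B, U2AF1, U2AF2, QKI, RBM39 and PCBP1. The rule found 54 of the 14959 genes, and 48 of them had a mean of at least 1 FPKM over the libraries. NOVA2 was also in the rule and was not analysed here. FPKM is the number of fragments per kilobase of a transcript and per 1e6 mapped fragments.

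The RNA came from UM-SCC1, an established cell line of head and neck squamous cell carcinoma (HNSCC). Cells received either miR-204-5p mimics (n = 3 libraries) or control mimics (n = 3 libraries), and RNA was collected at 48 h. Mimics are synthetic double-stranded RNAs that load a chosen miRNA strand into Argonaute proteins, and their level in the cell is set by transfection. The model is a single line, and no source used here says whether the libraries came from separate cultures, so p-values measure only the spread between these libraries.

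Splicing factors read short sequences in pre-mRNA and decide which exons are kept. SR proteins bind mainly exonic enhancers and recruit the spliceosome, whereas hnRNPs often silence exons, and their balance shapes isoform choice. RBFOX, MBNL, PTBP, CELF and QKI proteins also read short sequences in pre-mRNA, and some of them have strong cell-type bias. Several of them take part in the splicing switch of the epithelial-mesenchymal transition.

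All 9 squamous epithelial markers examined, among them KRT5 and TP63, had a mean of at least 1 FPKM, as did 1 of 5 leukocyte, 1 of 4 fibroblast and 0 of 3 endothelial markers. The summed epithelial markers ran from 873 to 968 FPKM with miR-204-5p mimics and from 997 to 1031 FPKM with control mimics, and their part in the results was not tested. Inferred depth was 13.1 to 16.4 M (1e6) fragments per library, so a single fragment on 1 kb of transcript was worth 0.0610 to 0.0766 FPKM. Fewer cells with a transcript and less of it per cell cannot be told apart in bulk RNA.

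The sequences that the design turns on are the mature miRNA and its matches in the genes. Human miR-204-5p (RefSeq, GRCh38.p14, chr9:70810031-70810052, minus strand) is printed with its seed, bases 2 to 8, in capitals:
hsa-miR-204-5p: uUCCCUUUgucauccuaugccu
Complements of the seed were searched on the sense strand of every gene's longest 3'UTR among its protein-coding transcripts (GENCODE 29, GRCh38). This is the longest 3'UTR meant below. An 8mer is AAAGGGAA, a 7mer-m8 is AAAGGGA, a 7mer-A1 is AAGGGAA and a 6mer is AAGGGA. Each gene was classed by its best match in this order, because the shorter words lie within the longer ones. Of the 15 members with a match of 7 or 8 bases, the following 8 had the largest absolute log2 fold changes, and their best match is shown in capitals with 10 bases on either side. For RBFOX2, all 3 matches of the 7mer-m8 type are shown. All lie in the last exon of the transcript searched:
MBNL1, 7mer-m8 at chr3:152463333-152463359, plus strand: atgttattcaAAAGGGAttgccatttc
RBFOX2, 7mer-m8 at chr22:35742528-35742554, minus strand: gacagctgctAAAGGGAgtaattcaga
RBFOX2, 7mer-m8 at chr22:35740530-35740556, minus strand: tactaggaggAAAGGGActttgggggg
RBFOX2, 7mer-m8 at chr22:35739750-35739776, minus strand: tggcgagcaaAAAGGGAgcagtgattc
MBNL3, 8mer at chrX:132373964-132373991, minus strand: tcccttcaacAAAGGGAAaaaaaatgct
RBM39, 7mer-m8 at chr20:35703969-35703995, minus strand: aattggcaagAAAGGGAgatttcaaaa
CELF2, 8mer at chr10:11332024-11332051, plus strand: aggccaatctAAAGGGAAaaaatcctac
TRA2B, 7mer-A1 at chr3:185916879-185916905, minus strand: agtacatgatAAGGGAAcactatacct
HNRNPA2B1, 8mer at chr7:26190314-26190341, minus strand: ctttaaaataAAAGGGAAatgttttctg
SRSF11, 8mer at chr1:70252809-70252836, plus strand: tagcttttctAAAGGGAAtcattttttt

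With miR-204-5p mimics, 14 of the 54 genes were lower and 2 were higher (limma on log2(FPKM + 1), two-sided, Benjamini-Hochberg adjusted p under 0.05 over all genes). That is 25.9% lower and 3.70% higher, against 16.8% lower and 23.9% higher over all 14959 genes, of which 40.8% passed the test in either direction. Among genes with a mean of at least 1 FPKM, 29.2% of the members and 20.1% of all genes were lower, and 4.17% and 27.7% were higher. The median log2 fold change was −0.05 over the members and 0.03 over all genes. Of the 14 lower genes, HNRNPH2, MBNL1, RBFOX2, HNRNPH1 and HNRNPM fell to under 75% of their control mean, and 8 others kept 80% or more. HNRNPH3 and MBNL2 rose. The plot of fold changes by family shows the 53 genes other than HNRNPH2.

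**Figure D1:**
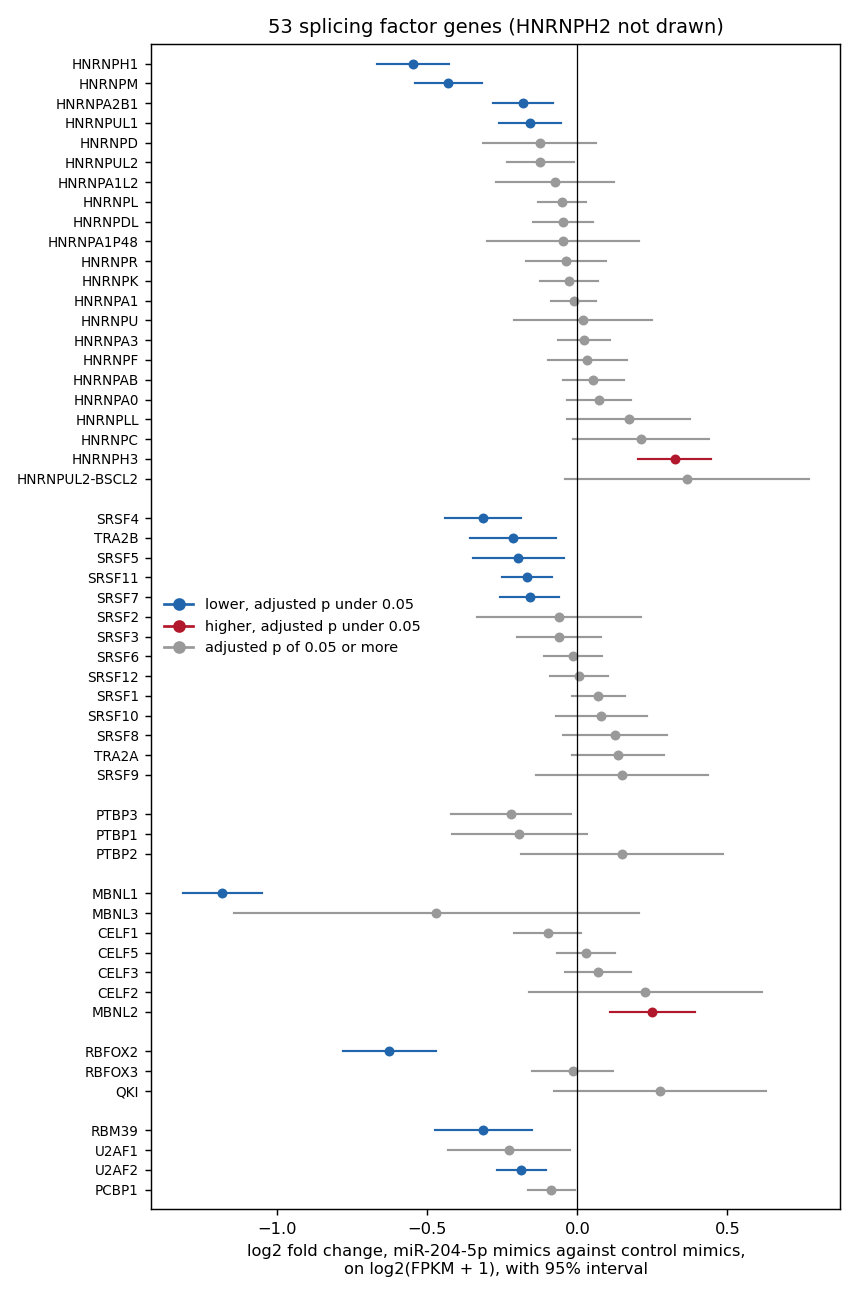
Log2 fold change on log2(FPKM + 1), miR-204-5p mimics against control mimics (x axis, with 95% intervals), for 53 splicing factor genes grouped by family and ordered by value. Blue marks genes that were lower and red those that were higher at a limma adjusted p under 0.05. MBNL1 lies furthest left at −1.18, while most genes sit near 0; HNRNPH2, at −5.14, is not drawn.

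The values of the miR-204-5p mimics lay entirely below those of the control mimics for 19 genes and entirely above for 5, whereas over all genes 22.7% lay entirely below and 30.9% entirely above. Those below without passing the test were PCBP1, HNRNPL, CELF1, HNRNPUL2 and U2AF1. SRSF1, TRA2A and QKI were above without passing it. The remaining 30 genes overlapped between groups.

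The largest change was at HNRNPH2, which encodes a G-run-binding hnRNP nearly identical to HNRNPH1. Its FPKM was 1.09, 1.08 and 1.01 with miR-204-5p mimics and 71.0, 70.4 and 73.2 with control mimics. No library of one group came near the other, and the group means differed 67.4-fold. The log2 fold change on log2(FPKM + 1) was −5.14 (SE 0.04, limma adjusted p 6.50e-08), the lowest of all genes in the table. If FPKM was computed on the listed transcript, the mimic values correspond to 32 to 38 fragments per library, above the counting floor.

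HNRNPH2 (chrX:101408295-101414133, plus strand) shares its locus with RPL36A-HNRNPH2, a read-through gene that begins in the ribosomal protein gene RPL36A. RPL36A-HNRNPH2 moved the other way, with 38.0, 40.1 and 35.2 FPKM under miR-204-5p mimics and 1.44, 0.930 and 0.938 FPKM under control mimics. Its log2 fold change was 4.21 (SE 0.11, limma adjusted p 1.25e-05), the highest of all genes. The listed read-through transcript has 572 bases in 4 exons. Its last exon, 362 bases long, lies entirely within the second and last exon of the 2223-base HNRNPH2 transcript, and the other 210 bases are also bases of RPL36A. Fragments from those 362 bases fit either gene, and how they were divided between the genes was not tested. The read-through gene took 97.3% ± 0.0956 (SD, n = 3) of the summed FPKM with miR-204-5p mimics, against 1.52% ± 0.404 (SD, n = 3) in the controls.

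Summing both genes gave a smaller change in the same direction. The summed FPKM was 39.1, 41.2 and 36.2 with miR-204-5p mimics and 72.4, 71.3 and 74.2 with control mimics. The mimic values all lay below the control values, at means of 38.8 ± 2.49 and 72.6 ± 1.44 FPKM (SD, n = 3), or 1.87-fold lower. FPKM divides by length, and the read-through transcript is shorter, so FPKM times kilobases was also summed. On that scale, which follows the number of fragments if FPKM was computed on the listed transcripts, the sums were 24.2, 25.3 and 22.4 against 159, 157 and 163, and the means differed 6.66-fold. Put into the limma fit in place of HNRNPH2, the sums gave log2 fold changes of −0.89 (adjusted p 9.72e-05) and −2.63 (adjusted p 6.58e-06). An exact two-sided permutation test of 3 against 3 libraries gave p = 0.1 for each sum, the smallest it can give. No match of 6 or more bases to the seed was found in the longest 3'UTR of HNRNPH2.

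**Figure D2:**
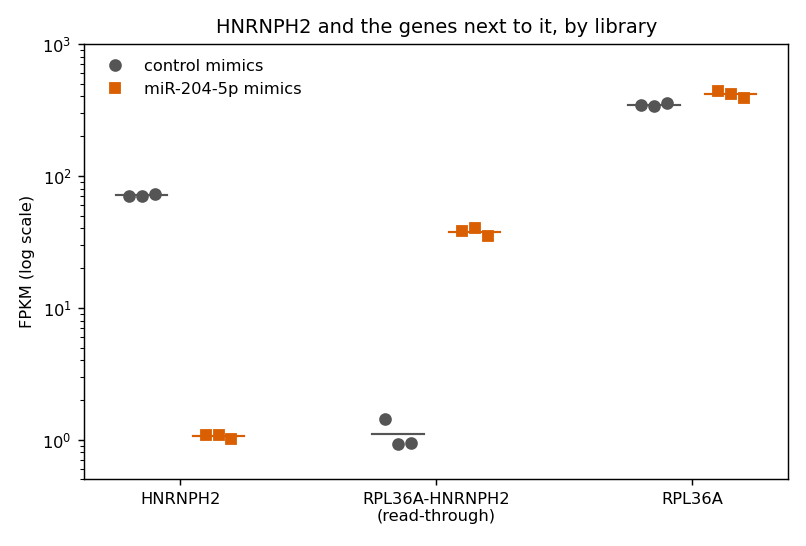
FPKM of HNRNPH2, the read-through gene RPL36A-HNRNPH2 and RPL36A (x axis) in each library, on a log scale (y axis). Grey circles are control mimics, orange squares miR-204-5p mimics and lines group means; HNRNPH2 goes from about 70 to about 1 FPKM while the read-through gene goes the other way.

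RPL36A, a ribosomal protein gene upstream on the same strand, had 438, 420 and 391 FPKM with miR-204-5p mimics and 344, 338 and 360 FPKM with control mimics. It was higher in all 3 mimic libraries, by 0.26 on the log2 scale (limma adjusted p 0.00871). Its listed transcript shares no exonic base with that of HNRNPH2.

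The other G-run-binding hnRNPs differed from one another. HNRNPH1 (chr5:179614178-179623710, minus strand) had 38.1, 35.5 and 34.9 FPKM with miR-204-5p mimics and 55.8, 51.1 and 53.1 FPKM with control mimics, with no overlap. It fell by 0.55 on the log2 scale (SE 0.05, limma adjusted p 0.000420). HNRNPH3, whose protein lacks one of the RNA-binding domains of its relatives, had 83.2, 80.7 and 81.0 FPKM against 62.2, 63.3 and 69.8 FPKM. Every mimic library was above every control library, and the log2 fold change was 0.32 (SE 0.05, limma adjusted p 0.00311). HNRNPF had a log2 fold change of 0.03 (95% interval −0.10 to 0.17), and its groups overlapped. The FPKM of HNRNPF, HNRNPH1 and HNRNPH3 summed to 209 ± 5.38 with miR-204-5p mimics, against 208 ± 1.65 in the controls (SD, n = 3). With HNRNPH2 included, the sum was 210 ± 5.43 with miR-204-5p mimics, against 279 ± 1.47 in the controls (SD, n = 3). Reads of near-identical stretches of HNRNPH1 and HNRNPH2 may have been split between them by the authors' counting.

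Among the 23 HNRNP genes, 5 were lower (21.7%), 1 was higher (4.35%) and 17 did not pass the test. All 23 had a mean of at least 1 FPKM. Over all genes with such a mean, 20.1% were lower and 27.7% higher. HNRNPM, which binds GU-rich sequence and is known for driving mesenchymal isoforms, had 41.7, 40.6 and 38.6 FPKM with miR-204-5p mimics and 54.0, 52.9 and 57.1 FPKM with control mimics. The groups were well apart, and HNRNPM fell by 0.43 on the log2 scale (SE 0.05, limma adjusted p 0.000728). HNRNPA2B1, an exon silencer and RNA carrier, was the most abundant of the 54 genes per length of transcript. It had 310, 314 and 294 FPKM against 341, 341 and 358 FPKM, again without overlap. It fell by 0.18 (SE 0.04, limma adjusted p 0.0147), and without control mimics replicate 3 its adjusted p was 0.0509. HNRNPUL1, an hnRNP U-like nuclear protein, had 43.3, 42.7 and 45.6 FPKM against 50.3, 49.8 and 47.1 FPKM. It fell by 0.16 (limma adjusted p 0.0260). The call was kept without replicate 3 of either group and lost without any of the other 4 libraries, at adjusted p-values of 0.0687 to 0.0816.

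Several of the most abundant hnRNPs had narrow intervals around 0. HNRNPA1, which competes with SR proteins for splice sites, had 191, 187 and 186 FPKM with miR-204-5p mimics and 189, 188 and 192 FPKM with control mimics. The 2 groups overlapped, and the log2 fold change was −0.01 (95% interval −0.09 to 0.06). HNRNPK, a binder of C-rich sequence, had −0.03 (95% interval −0.12 to 0.07), and HNRNPA3, a relative of HNRNPA1, had 0.02 (95% interval −0.06 to 0.11). The values of HNRNPA1, HNRNPA1L2 and the pseudogene HNRNPA1P48 are uncertain where they share near-identical sequence. HNRNPC, which binds uridine tracts, had 78.3, 89.5 and 89.8 FPKM against 68.6, 69.6 and 84.4 FPKM, so that 1 control library lay within the range of the mimics. Its log2 fold change was 0.21 (95% interval −0.02 to 0.44), and it was called only without control mimics replicate 3 (0.31, limma adjusted p 0.0235) among the settings tried. The read-through gene HNRNPUL2-BSCL2 had 4.37 FPKM in miR-204-5p mimics replicate 1 and 2.07 to 2.92 FPKM in the other 5 libraries, and it did not pass the test. HNRNPUL2, which shares sequence with it, had a log2 fold change of −0.12 (95% interval −0.24 to −0.01, limma adjusted p 0.0766).

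Of the 14 genes for SR proteins and their TRA2 relatives, 5 were lower (35.7%) and none passed the test as higher. Over all genes, 16.8% were lower and 23.9% higher, and 20.1% and 27.7% of those with a mean of at least 1 FPKM. SRSF4, a long SR protein that promotes exon inclusion, had 51.2, 54.5 and 53.1 FPKM with miR-204-5p mimics and 62.2, 70.3 and 65.9 FPKM with control mimics. It was lower in every mimic library, with a log2 fold change of −0.31 (SE 0.05, limma adjusted p 0.00425). TRA2B, a splicing activator that binds GAA-rich enhancers, had 26.1, 26.6 and 24.0 FPKM against 31.3, 27.9 and 30.3 FPKM. The gap between its groups was narrow, and it fell by 0.21 (SE 0.06, limma adjusted p 0.0287).

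SRSF5, an SR protein of the same subgroup as SRSF4, had 56.5, 56.8 and 54.4 FPKM with miR-204-5p mimics and 58.3, 66.3 and 68.4 FPKM with control mimics. The lowest control library lay close to the mimics, and the fall of 0.20 passed the test narrowly (limma adjusted p 0.0474). SRSF11, an SR-like protein, had 34.7, 35.7 and 35.1 FPKM against 38.7, 40.2 and 40.0 FPKM, with tight groups. It fell by 0.17 (SE 0.03, limma adjusted p 0.00901). SRSF7, which also acts in mRNA export, had 18.7, 17.8 and 17.9 FPKM against 20.1, 20.0 and 20.9 FPKM. Its groups did not overlap, and it fell by 0.16 (limma adjusted p 0.0222). With 1 library left out, the call of TRA2B was kept without replicate 2 of either group and lost in the other 4 fits (adjusted p 0.0556 to 0.0864). That of SRSF7 was kept without control mimics replicate 2 or miR-204-5p mimics replicate 1 and lost in the other 4 (adjusted p 0.0511 to 0.0678). That of SRSF5 was kept only without control mimics replicate 1 and lost in the other 5 (adjusted p 0.0935 to 0.133).

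SRSF9, a short SR protein, was the most abundant SR gene per length and stood apart in 1 library. It had 183, 133 and 139 FPKM with miR-204-5p mimics and 131, 132 and 143 FPKM with control mimics. Only replicate 1 of the mimics lay outside the control range, and the log2 fold change was 0.15 (95% interval −0.14 to 0.44, limma adjusted p 0.362). SRSF2, which binds exonic enhancers and is recurrently mutated in myeloid cancer, had 37.0, 36.7 and 36.3 FPKM against 42.5, 31.4 and 42.0 FPKM. Here control mimics replicate 2 was the low one, and without it SRSF2 fell by 0.20 (limma adjusted p 0.0146), while with all libraries it had −0.06 (limma adjusted p 0.705). SRSF1, the founding SR protein, had 82.3, 87.1 and 83.8 FPKM against 79.9, 78.9 and 82.3 FPKM. All its mimic values were above the controls, by a margin in the second decimal at the closest pair, and its log2 fold change of 0.07 did not pass the test (limma adjusted p 0.177). TRA2A, the paralog of TRA2B, had 0.13 (95% interval −0.02 to 0.29).

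MBNL proteins repress fetal exons and are sequestered in myotonic dystrophy. Of the 3 MBNL genes 1 was lower and 1 higher (over all genes, 16.8% were lower and 23.9% higher). MBNL1 (chr3:152268040-152465779, plus strand) had 7.06, 6.89 and 6.33 FPKM with miR-204-5p mimics and 17.1, 16.1 and 16.7 FPKM with control mimics. The mimic libraries held 40.7% of the control mean, and the log2 fold change was −1.18 (SE 0.05, limma adjusted p 5.63e-05). MBNL2 had 20.5, 22.5 and 23.4 FPKM against 19.0, 18.7 and 17.7 FPKM. It rose by 0.25 (SE 0.06, limma adjusted p 0.0156) and was higher in all 3 mimic libraries, and without miR-204-5p mimics replicate 2 its adjusted p was 0.0530. The ratio of MBNL1 to MBNL2 in FPKM was 0.307 ± 0.0368 with miR-204-5p mimics, against 0.901 ± 0.0418 in the controls (SD, n = 3).

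MBNL3, another relative, was scarce, and its mimic libraries disagreed. It had 0.555, 0.219 and 1.78 FPKM with miR-204-5p mimics and 1.50, 1.40 and 1.33 FPKM with control mimics. Replicate 3 of the mimics was above all control libraries and the other two were below them. The log2 fold change was −0.47 with a wide interval (95% interval −1.14 to 0.20, limma adjusted p 0.232), and without miR-204-5p mimics replicate 3 it was −0.81 (limma adjusted p 0.00524). Summed over the 3 MBNL genes, FPKM was 29.8 ± 1.70 with miR-204-5p mimics, against 36.5 ± 0.991 in the controls (SD, n = 3).

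None of the 4 CELF genes, whose proteins often oppose MBNL, passed the test, whereas 40.8% of all genes did so in either direction. Of the 4, 1 had a mean of at least 1 FPKM. CELF1, the abundant one, had 16.6, 17.3 and 18.3 FPKM with miR-204-5p mimics and 18.8, 18.6 and 18.7 FPKM with control mimics. Every mimic library was below every control library, and the log2 fold change was −0.10 (95% interval −0.21 to 0.01, limma adjusted p 0.135). CELF2 had 1.61 FPKM in miR-204-5p mimics replicate 2 and 0.589 to 0.916 FPKM elsewhere. CELF3, CELF5, RBFOX3 and SRSF12 were near the floor, with at most 8 fragments in any library as inferred from the listed transcript lengths. A difference in them was not detectable at this depth.

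RBFOX2 (chr22:35738736-35840587, minus strand), the main RBFOX factor of epithelial and mesenchymal cells, had 10.7, 11.5 and 11.9 FPKM with miR-204-5p mimics and 19.3, 18.0 and 16.9 FPKM with control mimics. The groups were far apart, and RBFOX2 fell by 0.63 on the log2 scale (SE 0.06, limma adjusted p 0.000620). QKI, a STAR-family factor known for its role in mesenchymal splicing and circular RNA formation, had 1.39, 1.30 and 2.34 FPKM against 1.03, 1.27 and 1.25 FPKM. Its mimic libraries were all above the controls, replicate 3 by far the most, and its log2 fold change of 0.27 did not pass the test (95% interval −0.08 to 0.63). 

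No PTBP gene of 3 passed the test, whereas 40.8% of all genes did so in either direction. PTBP1, the polypyrimidine tract repressor of non-neuronal cells, had 41.6, 51.1 and 53.6 FPKM with miR-204-5p mimics and 57.5, 56.2 and 53.2 FPKM with control mimics. The groups overlapped because 1 mimic library exceeded 1 control library, and the log2 fold change was −0.19 (95% interval −0.42 to 0.03). Replicate 1 of the mimics was the low one, and leaving it out gave −0.09. PTBP3 had −0.22 (limma adjusted p 0.0769), and −0.30 (limma adjusted p 0.0219) without control mimics replicate 3. PTBP2, the neuronal paralog, had 1.04 FPKM in miR-204-5p mimics replicate 1 and 0.373 to 0.565 FPKM in the others.

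Of the 4 genes for U2AF, RBM39 and PCBP1, 2 were lower, and in all 4 the mimic libraries lay entirely below the controls (over all genes, 16.8% were lower and 22.7% lay entirely below). U2AF2, the large U2AF subunit that binds the polypyrimidine tract, had 54.8, 54.9 and 55.6 FPKM with miR-204-5p mimics and 64.7, 61.3 and 62.6 FPKM with control mimics. Its groups were tight and apart, and it fell by 0.19 (SE 0.03, limma adjusted p 0.00586). U2AF1, the small subunit that reads the AG, had 19.4, 18.0 and 20.3 FPKM against 20.7, 25.6 and 22.0 FPKM. It had −0.23 (95% interval −0.43 to −0.02, limma adjusted p 0.0737). Leaving out control mimics replicate 1 gave −0.29 (limma adjusted p 0.0456). The near-identical gene U2AF1L5 had 16.1 to 19.5 FPKM against 11.6 to 21.3 FPKM, and the sum of both genes gave −0.08 (limma adjusted p 0.399).

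RBM39, an SR-like U2AF partner that is degraded by aryl sulfonamide drugs, had 35.6, 36.8 and 33.9 FPKM with miR-204-5p mimics and 40.6, 48.2 and 44.2 FPKM with control mimics. All mimic values lay below the controls, and the log2 fold change was −0.31 (SE 0.07, limma adjusted p 0.0111). PCBP1, a poly(C)-binding protein, was the most abundant of this group per length. It had 132, 126 and 129 FPKM against 137, 135 and 139 FPKM, and its log2 fold change of −0.09 did not pass the test (95% interval −0.17 to −0.01, limma adjusted p 0.0808). Under each of the 3 ways tried of rescaling the libraries PCBP1 passed it.

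**Figure D3:**
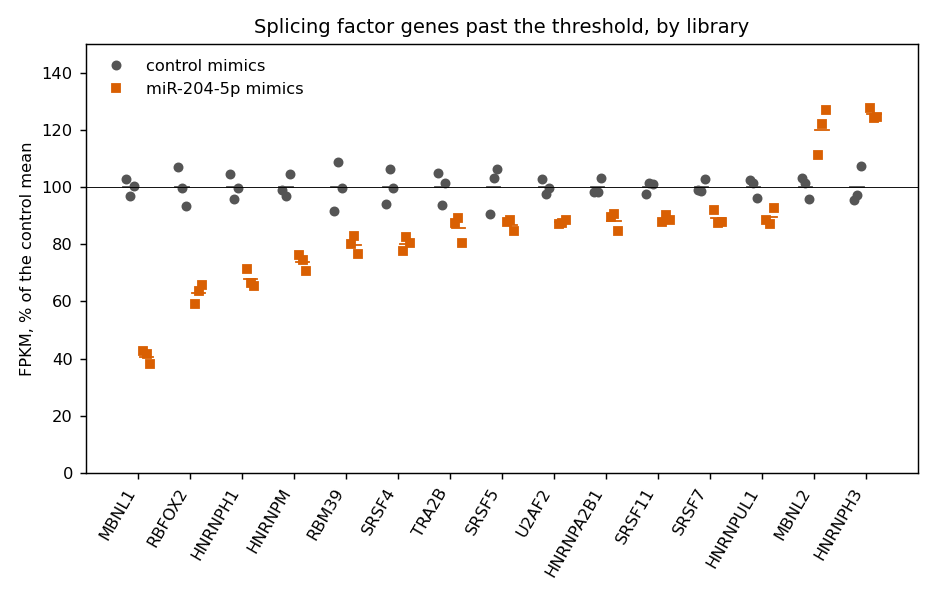
FPKM in each library as a percent of the gene's control mean (y axis) for the 15 genes past the threshold other than HNRNPH2 (x axis). Grey circles are control mimics, orange squares miR-204-5p mimics and short lines group means; MBNL1 sits near 40% while most of the lower genes sit between 80% and 90%.

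Reading these changes beside the seed matches, 52 members had an annotated 3'UTR in a protein-coding transcript. Of these, 15 had a match of 7 or 8 bases (28.8%), as did 27.1% of the 14664 genes with such a 3'UTR. Of these 15 genes, 6 were lower and none passed the test as higher. They were MBNL1, RBFOX2 and RBM39 with a 7mer-m8, HNRNPA2B1 and SRSF11 with an 8mer, and TRA2B with a 7mer-A1. Over all genes with such a match, 27.0% were lower and 16.4% higher. Of the 37 members with a 6mer or no match, 8 were lower and 2 higher, and over all such genes 13.5% were lower and 27.2% higher. HNRNPH2, HNRNPH1 and HNRNPM, all among the 5 largest falls that passed the test, had no match of 6 or more bases in the longest 3'UTR. MBNL3, with an 8mer, had −0.47, below the −0.43 of HNRNPM, and did not pass it. The median log2 fold change was −0.12 over the 15 members with a match of 7 or 8 bases and −0.05 over the other 37. Over all genes the medians were −0.03 and 0.06. The other members with such a match were HNRNPA1, HNRNPA3, HNRNPR and HNRNPUL2 (7mer-m8), HNRNPU and SRSF12 (7mer-A1), and MBNL3, CELF2 and SRSF8 (8mer), none of which passed the test. Transcripts annotated as targets of nonsense-mediated decay were not searched. The listed transcript of HNRNPU is of that type, and its 3'UTR of 4831 bases holds a 7mer-m8. HNRNPUL2-BSCL2, whose listed transcript is also of that type, was not classed. A match describes the letters only. The matches shown for SRSF11 and CELF2 lie outside the transcripts listed for them in the deposited table, whereas those shown for MBNL1, RBFOX2, MBNL3, RBM39, TRA2B and HNRNPA2B1 lie in the listed transcript.

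**Figure D4:**
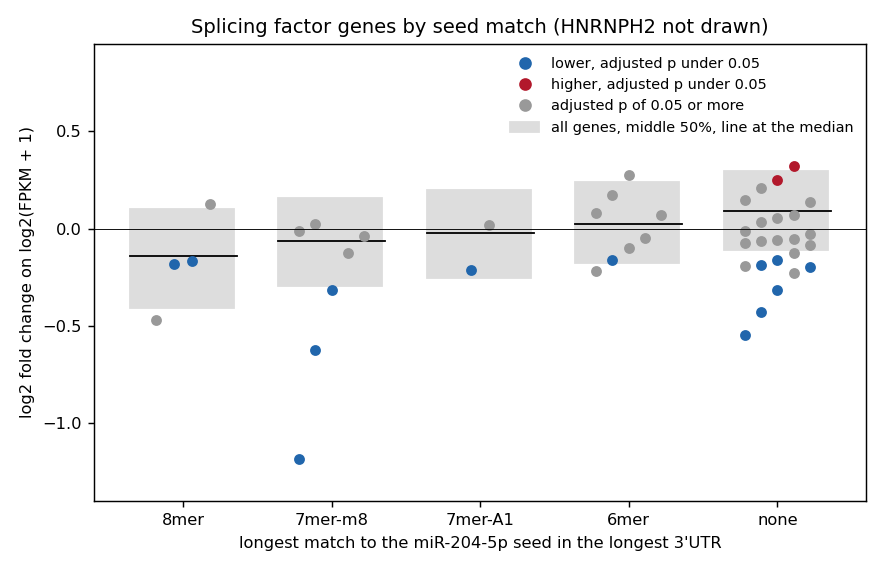
Log2 fold change on log2(FPKM + 1) (y axis) of 45 splicing factor genes with a mean of at least 1 FPKM, by the longest seed match in the longest 3'UTR (x axis). Grey boxes span the middle 50% of all genes with such a mean, not only splicing factor genes, with a line at the median. MBNL1 (−1.18) and RBFOX2 (−0.63) are the lowest points of the 7mer-m8 class. HNRNPH1 (−0.55) and HNRNPM (−0.43) are those of the class without a match (HNRNPH2 is not drawn).

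The table gives 1 transcript per gene. For HNRNPR, HNRNPU, SRSF3, SRSF6, QKI and HNRNPUL2-BSCL2 that transcript is annotated as a target of nonsense-mediated decay, which is 11.1% of the members against 6.64% of all genes. None of these 6 passed the test, whereas 40.8% of all genes did so in either direction. If FPKM was computed on the listed transcripts, their FPKM rests on the length of that transcript. Their level relative to other genes is therefore uncertain. Listed transcripts of 5 members share exonic bases with a gene on the opposite strand: HNRNPU with COX20 (2196 bases), SRSF2 with MFSD11 (732), SRSF9 with GATC (495), HNRNPUL1 with TGFB1 (174) and HNRNPH3 with RUFY2 (115). On the same strand, SRSF1 shares 1890 bases with AC015813.2 and HNRNPUL2 2391 bases with its read-through gene. Whether the counting used strand is not given in the sources used here, and how such reads were divided was not tested.

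Genes that work with these factors were counted from 4 lists, of which 109 of 111 genes were in the table. MATR3 stands there under 2 gene IDs, neither of which passed the test, so the counts are over 110 gene IDs. Of these, 15 were higher and 29 lower (13.6% and 26.4%), against 23.9% higher and 16.8% lower over all genes, and the median log2 fold change was −0.05. In either direction 40% passed the test, against 40.8% of all genes. Of the 110 gene IDs, 107 had a mean of at least 1 FPKM. Over all genes with such a mean, 27.7% were higher and 20.1% lower, 5496 of 11504 in either direction, so the lists lay below that share. Core snRNP and U2 components split evenly, with 8 higher and 8 lower of 38. The Sm proteins SNRPD2 (0.78, limma adjusted p 0.0389), SNRPD1 (0.63, limma adjusted p 0.00267) and SNRPE (0.54, limma adjusted p 0.000550) rose, whereas SNRPB fell by 0.29 (limma adjusted p 0.000621). The helicase DHX38 (−0.65, limma adjusted p 0.000196) and the branch point protein SF1 (−0.44, limma adjusted p 0.000660) fell.

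Of the 10 SR protein kinases, which phosphorylate the arginine- and serine-rich domain of SR proteins, CLK4 (−0.46, limma adjusted p 0.00560) and CLK1 (−0.40, limma adjusted p 0.0397) fell. The others did not pass the test. These 2 are 20.0% of the kinases, whereas over all genes 16.8% were lower, and 20.1% of those with a mean of at least 1 FPKM. Among 18 SR-related nuclear proteins, 3 rose and 6 fell (16.7% and 33.3%). All 18 had a mean of at least 1 FPKM, and over all genes with such a mean 27.7% were higher and 20.1% lower. RNPS1, an exon junction complex partner, went from 22.0 to 41.7 FPKM (0.90, limma adjusted p 0.000533), and SRRM2, a scaffold of nuclear speckles, from 43.0 to 71.1 FPKM (0.71, limma adjusted p 0.00225). SCAF1 had the largest fall of that list (−0.57, limma adjusted p 0.000726).

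Among 43 other regulatory RNA-binding proteins (44 gene IDs, since MATR3 has 2), 4 rose and 13 fell (9.09% and 29.5% of the gene IDs). Over all genes 23.9% were higher and 16.8% lower, and 27.7% and 20.1% of those with a mean of at least 1 FPKM. FUBP3 went from 37.4 to 19.1 FPKM (−0.93, limma adjusted p 5.63e-05). EWSR1, an RNA-binding protein of the nucleus, went from 47.5 to 72.4 FPKM (0.59, limma adjusted p 0.00367). KHDRBS1, also called Sam68, fell by 0.62 (limma adjusted p 0.000113), and PSPC1, a paraspeckle protein, rose by 0.49 (limma adjusted p 0.00170). The listed transcript of EWSR1 has 560 bases in 5 exons and no annotated 3'UTR, and that of PSPC1 is annotated as a target of nonsense-mediated decay. How far the listed transcript shaped these values was not tested.

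**Figure D5:**
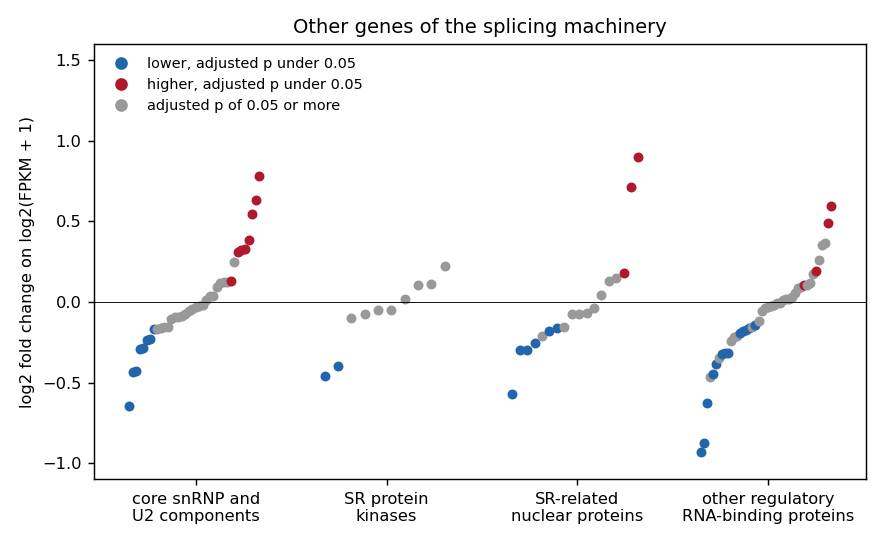
Log2 fold change on log2(FPKM + 1) (y axis) of 110 gene IDs (109 genes) of the splicing machinery in 4 lists (x axis), ordered by value within each list. Blue and red mark genes lower and higher at a limma adjusted p under 0.05; 29 are blue and 15 red, with both colours in every list but the kinases.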

How the data were processed

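RNA-seq libraries were made from UM-SCC1 cells (6 libraries, 2 groups of 3). The authors deposited FPKM per gene and library beside a single listed transcript of each gene. Whether FPKM was computed on that transcript or on the gene is not stated in the sources used here. The submitters' processing notes name HISAT2, StringTie and hg38. The authors' log2 ratio and edgeR p-value and FDR columns hold their own comparison and were not used. Counts are not part of the table and could not be recovered: 29.5% to 33.7% of low values were whole fragments at the inferred step (tolerance 0.02), so no count test was run and the depth given is an inference that covers counting only. Groups came from the transfection labels.

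FPKM was compared as log2(FPKM + 1) with limma 3.58.1 under R 4.3.3 (lmFit, then eBayes with a trend), all 14959 genes, two-sided, with Benjamini-Hochberg adjustment, and intervals are at 95%. Python 3.11.15, numpy 2.4.6, pandas 2.3.3, scipy 1.17.1 and matplotlib 3.10.9 did the rest. Listed transcripts and 3'UTRs were matched to GENCODE 29 by ID, where 52 of the 54 members had the same coordinates. The miRNA sequence is from RefSeq.

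Alternatives were a pseudocount of 0.1, a mean of at least 1 FPKM, a block for the replicate number, leaving out each library, equal sums, equal medians, quantile normalization and no trend. The sums of HNRNPH2 with RPL36A-HNRNPH2 and of U2AF1 with U2AF1L5 were added after seeing the data. Members and lists were chosen with earlier results of these data known. Every member could be named. Values per library were given, per family, for up to 5 genes in each direction with an adjusted p under 0.05 and a mean of at least 1 FPKM, for the most abundant gene, for HNRNPH2 and the genes that overlap it, and for genes in which 1 library stood apart. From the other lists, up to 5 genes in each direction could be named, and a withheld item is not reported here. HNRNPA1, HNRNPC, SRSF1, CELF1, U2AF1 and SNRPD2 have values per library beyond that rule and were chosen after their values were seen. RPL36A overlaps the read-through gene.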

Additional observations from a re-analysis of the deposited data

How the results depend on the processing

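Across 13 alternatives, 10 of the 16 calls were kept in each: HNRNPH1, HNRNPH2, HNRNPH3, HNRNPM, MBNL1, RBFOX2, SRSF11, SRSF4, RBM39 and U2AF2. SRSF5 lost its call in 7, HNRNPUL1, SRSF7 and TRA2B in 5 each, MBNL2 in 3 and HNRNPA2B1 in 2. The 14 lower genes became 9 with the replicate block, 11 to 13 without 1 library, 13 without the trend, 16 with equal sums, 19 with equal medians and 15 with quantile normalization. Over all genes, 16.8% lower and 23.9% higher became 19.3% and 20.6% with equal sums, 19.7% and 20.8% with equal medians, and 20.2% and 20.3% with quantile normalization. The 2 higher genes became 1 with the replicate block, 1 with equal sums and 1 to 3 without 1 library, the 1 being without miR-204-5p mimics replicate 2. Deviations of same-numbered libraries from their group means correlated at −0.04, −0.02 and −0.11, and no library correlated best with its own number. The labels do not say whether same-numbered libraries were prepared together, and these correlations cannot decide it. The cause of the lost calls was not tested.

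Direction reversed only in genes that passed no test there, among the members and U2AF1L5. With equal sums, equal medians and quantile normalization, HNRNPA3 had −0.021, −0.022 and −0.00079, and HNRNPU −0.024, −0.025 and −0.0074. HNRNPF had −0.011 with equal sums and −0.012 with equal medians. Over the fits without 1 library, the log2 fold change ran from −0.13 to 0.041 for HNRNPA1P48, −0.015 to 0.067 for HNRNPF, −0.075 to 0.00020 for HNRNPR, −0.057 to 0.10 for HNRNPU and −0.014 to 0.24 for PTBP2. It ran from −0.051 to 0.040 for RBFOX3, −0.020 to 0.036 for SRSF12, −0.20 to 0.013 for SRSF2, −0.028 to 0.010 for SRSF6 and −0.083 to 0.33 for U2AF1L5. Genes that passed the test only under an alternative included PCBP1 and U2AF1 under rescaling, and HNRNPUL2, CELF1 and PTBP3 with equal medians. With 3 libraries per group and no counts, small differences in scarce genes were not detectable.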
